A study of Mus musculus with 199 samples.

Results

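Kupffer cells are the resident macrophages of the liver, and 10 genes that mark them were read from the count table of 199 mouse libraries: Marco, Timd4, Clec4f, Vsig4, Cd5l, Folr2, C1qa, C1qb, C1qc and Adgre1. The genes were chosen by symbol, and all 10 were found among the 37713 Ensembl genes of the table. The samples come from a mouse model of fatty liver disease with liver cancer, in which DEN, the liver carcinogen diethylnitrosamine, is given with ALIOS, a diet high in fat and sugar. Whole pieces of liver (15 libraries), small primary tumours (25) and large primary tumours (25) were sequenced from stranded mRNA libraries. Neutrophils and T cells were sequenced from low-input total RNA libraries (61 and 73) after sorting by flow cytometry for Ly6G and CD3.

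Every animal was a male wild-type C57BL/6 mouse of the submitters' own colony, and the labels give no age. The 15 pieces of liver have DEN ALIOS in their titles but Normal as their treatment, and the labels do not say whether their donors carried tumours elsewhere. Both tumour groups are from DEN ALIOS mice without further treatment. Sorted cells came from DEN ALIOS mice that were untreated (some labelled vehicle), or received aPD1, an antibody against the immune checkpoint receptor PD-1, CXCR2i, which blocks the chemokine receptor CXCR2 of neutrophils (some with an isotype control antibody), or both agents. T cells were also taken from PBS mice and from mice labelled CXCR2i alone, with no DEN or ALIOS in the label. Where sorted cells did not come from blood, titles give liver and the extraction protocol gives tumours, and the word of the titles is kept here. The protocol ties all the sorting to DEN ALIOS mice, which the labels of the PBS and CXCR2i-alone T cells do not state.

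Kupffer cells line the liver sinusoids, where they take up particles, bacteria and dying cells from the blood. They are seeded before birth and maintain themselves locally, and signals from sinusoidal endothelial cells, stellate cells and hepatocytes keep up their identity. Some of their markers, such as Timd4 and Clec4f, appear late or not at all on monocyte-derived macrophages that enter an injured liver, whereas Adgre1 and the C1q genes are shared by many tissue macrophages.

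By role, the 10 genes fall into receptors for uptake, secreted products and a general macrophage marker. Marco is a scavenger receptor on chromosome 1 (120474538 to 120505024, minus strand). Timd4 binds phosphatidylserine on dying cells and lies on chromosome 11 (46810800 to 46844332, plus strand). Clec4f, on chromosome 6 (83644542 to 83656187, minus strand), encodes a C-type lectin largely restricted to Kupffer cells in the mouse. Vsig4 is the complement receptor CRIg, on chromosome X (96247203 to 96293438, minus strand). Folr2 encodes folate receptor beta on chromosome 7 (101839988 to 101857194, minus strand), where 2 annotated genes on the opposite strand overlap it. Cd5l, on chromosome 3 (87357881 to 87371073, plus strand), encodes the secreted apoptosis inhibitor of macrophages. The genes of the 3 chains of C1q, the recognition protein of the classical complement pathway, lie side by side on the minus strand of chromosome 4: C1qb (136880129 to 136886187), C1qc (136889804 to 136893065) and C1qa (136895917 to 136898803). Adgre1, on chromosome 17 (57358691 to 57483527, plus strand), encodes F4/80, a surface protein of most mouse tissue macrophages. Positions are of GRCm38 and span the whole gene, exons and introns, in the GENCODE M21 annotation.

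The promoters are shown because these genes fell together in tumours, and letters known for macrophage factors were looked for in them. RefSeq promoter sequences of GRCm38.p6 were at hand for 8 of the 10 genes (9 promoters, Folr2 having 2). The 250 bases before the start were searched on both strands for 4 motifs. They were GAGGAAG, an ETS-type site of PU.1 and Spi-C, TGCTGAC, a partial MAF site, TGANTCA, an AP-1 site, and CATGTG, an E-box of MITF and TFE factors. None of these motifs contains another. The 4 promoters below hold a match and lie outside the annotated gene; they are written 5′ to 3′ in the direction of transcription, with the matched letters in capitals. The windows are chr1:120505025-120505274 (minus) for Marco, chr11:46810549-46810798 (plus) for Timd4, chr3:87357631-87357880 (plus) for Cd5l and chr4:136886201-136886450 (minus) for C1qb.
Marco: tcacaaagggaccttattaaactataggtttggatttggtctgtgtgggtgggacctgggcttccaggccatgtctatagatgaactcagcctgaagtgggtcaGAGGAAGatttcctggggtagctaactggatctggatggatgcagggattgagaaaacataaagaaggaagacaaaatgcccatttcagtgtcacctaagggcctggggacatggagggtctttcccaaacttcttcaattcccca
Timd4: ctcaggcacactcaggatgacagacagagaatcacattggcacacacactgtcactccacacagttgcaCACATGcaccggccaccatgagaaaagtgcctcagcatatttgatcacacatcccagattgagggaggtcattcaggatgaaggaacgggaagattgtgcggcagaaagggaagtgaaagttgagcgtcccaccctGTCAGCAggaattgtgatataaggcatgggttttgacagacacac
Cd5l: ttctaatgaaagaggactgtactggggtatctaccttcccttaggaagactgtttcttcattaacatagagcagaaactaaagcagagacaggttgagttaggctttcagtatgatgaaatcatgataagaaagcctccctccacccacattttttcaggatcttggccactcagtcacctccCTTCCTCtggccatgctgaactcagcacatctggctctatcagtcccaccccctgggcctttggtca
C1qb: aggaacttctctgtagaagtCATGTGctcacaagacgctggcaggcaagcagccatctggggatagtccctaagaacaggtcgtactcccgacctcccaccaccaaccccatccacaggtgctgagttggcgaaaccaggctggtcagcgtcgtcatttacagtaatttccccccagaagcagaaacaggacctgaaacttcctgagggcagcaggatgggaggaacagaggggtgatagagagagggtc

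GAGGAAG, or its reverse complement, was present before the start of Marco, Cd5l and C1qc, and in 10.6% of 32841 promoters of the same length. In Marco it began 146 bases before the start, and in Cd5l its reverse complement began 67 bases before. TGCTGAC was found in Timd4 only among the 8 genes, 45 bases before the start and on the other strand, against 3.81% of all promoters. CATGTG was present in Timd4, C1qb, C1qc and 1 of the 2 Folr2 promoters, and in 12.3% of all. TGANTCA was present in that same Folr2 promoter, and in 6.75% of all. Clec4f and Vsig4 held none of the 4. A match says that these letters are there, not that a factor binds.

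All 10 genes were detected in liver tissue, and each had a lower median in small tumours and a still lower one in large tumours. The plot of levels in tissue shows this order gene by gene. Levels are counts per 1000000 gene counts (CPM) after scaling of library sizes, and are quoted as the lowest, the median and the highest library of a group. In bulk tissue, fewer cells of a type and less RNA per cell cannot be told apart.

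Marco was at 3.24, 34.1 and 74.2 CPM in liver tissue. In small tumours it was at 0.208, 3.84 and 18.7 CPM, and in large tumours at 0.0620, 0.557 and 7.70 CPM. Of the 25 large tumours 22 lay below the lowest liver library, and of the 25 small tumours 11 did. The groups overlapped only through the lower liver libraries and the higher tumours, and no tumour of either size reached the liver median. Timd4 was at 3.39, 12.5 and 22.9 CPM in liver tissue, at 0.139, 2.26 and 8.88 CPM in small tumours, and at 0, 0.618 and 4.34 CPM in large tumours. A count of 0 allows up to 3 counts, which is 0.137 to 0.249 CPM in these tissue libraries. For Timd4, 24 large and 18 small tumours were below every liver library.

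Clec4f was far more abundant and separated the groups most cleanly. It was at 142, 276 and 349 CPM in liver tissue, at 23.5, 97.9 and 178 CPM in small tumours, and at 2.93, 36.5 and 132 CPM in large tumours. All 25 large tumours lay below the lowest liver library, as for 2.21% of all genes tested, and 21 small tumours did. Vsig4 was at 28.9, 65.6 and 91.7 CPM in liver tissue, 10.2, 27.7 and 47.6 CPM in small tumours, and 0.587, 11.0 and 40.1 CPM in large tumours. Folr2 was at 14.9, 31.4 and 42.2 CPM in liver tissue, 3.20, 11.7 and 20.3 CPM in small tumours, and 0.652, 3.83 and 15.0 CPM in large tumours. For Vsig4 and Folr2, 22 and 24 large tumours were below every liver library, so the receptors for uptake shared one order of groups.

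Cd5l, the secreted product, kept a higher share of its level. It was at 282, 380 and 498 CPM in liver tissue, 100 to 322 CPM (median 231) in small tumours, and 21.8 to 328 CPM (median 145) in large tumours. The lowest large tumours were thus far under the liver range while the highest reached into it, and 23 of 25 lay below all liver libraries.

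The C1q chains and Adgre1 were lower too, but in a much narrower range. C1qa was at 96.7, 116 and 141 CPM in liver tissue, 49.6, 81.1 and 136 CPM in small tumours and 35.0, 71.9 and 140 CPM in large tumours, so that the highest tumours lay within the liver range. The liver medians of C1qb and C1qc were 144 and 120 CPM, their small tumour medians 105 and 85.0 CPM, and their large tumour medians 95.7 and 74.4 CPM. Adgre1 was at 45.0, 52.3 and 86.5 CPM in liver tissue, 23.5, 38.1 and 75.1 CPM in small tumours and 12.4, 29.9 and 61.7 CPM in large tumours. Each C1q gene was at or above its liver median in 2 large tumours, Adgre1 in 1, and the other 6 genes in none.

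As a share of the liver median, the large tumour median was 1.64% for Marco, 4.95% for Timd4, 12.2% for Folr2, 13.2% for Clec4f and 16.8% for Vsig4. It was 38.1% for Cd5l, 57.2% for Adgre1 and between 61.8% and 66.7% for the C1q genes. In small tumours the same shares ran from 11.3% for Marco to 73.2% for C1qb. The large tumours also differed widely from each other. Among them the highest library exceeded the lowest 124-fold for Marco, 68.4-fold for Vsig4 and 45.1-fold for Clec4f, against 3.16-fold for C1qc and 4.99-fold for Adgre1.

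**Figure D1:**
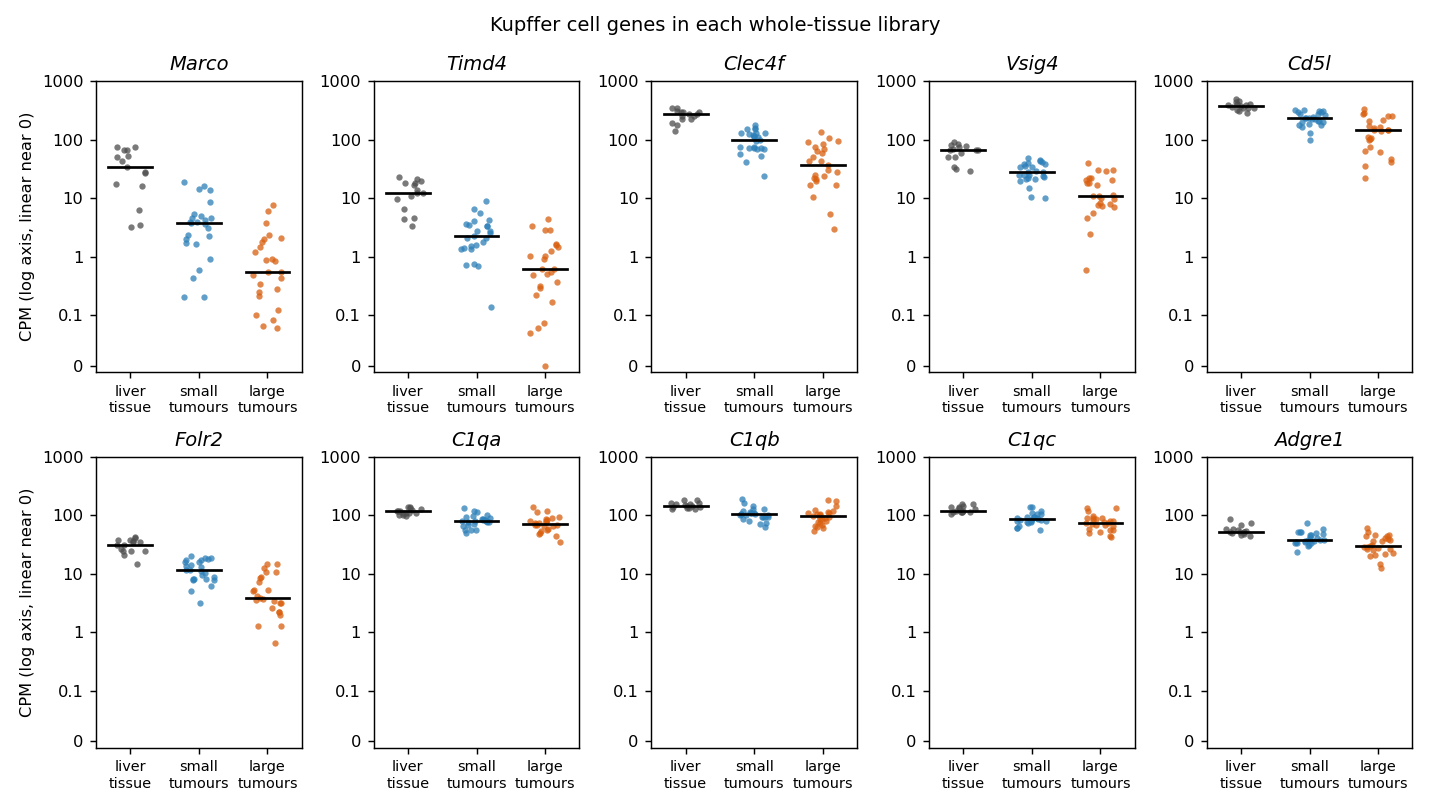
Level of each of the 10 genes (CPM, on a log axis that is linear near 0) in every library of liver tissue (15), small tumours (25) and large tumours (25), with the group median as a bar. Marco falls from a median of 34.1 CPM in liver tissue to 0.557 CPM in large tumours, while C1qb goes from 144 to 95.7 CPM.

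In the test of large tumours against liver tissue, all 10 genes were lower at an adjusted p under 0.05 (edgeR's quasi-likelihood test over 14538 genes, sequencing run as a term, Benjamini-Hochberg adjustment). Of all genes tested, 32.1% were called lower in that comparison and 38.5% higher, so most genes changed and a call alone is common. The 10 genes' median log2 fold change was -1.76, where that of all genes was 0.047. Marco fell by 4.87 ± 0.49 (log2 fold change ± SE, adjusted p 1.6e-13), Timd4 by 3.66 ± 0.37, Clec4f by 2.50 ± 0.28, Folr2 by 2.45 ± 0.25, Vsig4 by 2.13 ± 0.25 and Cd5l by 1.38 ± 0.21. Adgre1 fell by 0.72 ± 0.13 on that scale, C1qc by 0.69 ± 0.11, C1qa by 0.63 ± 0.12 and C1qb by 0.55 ± 0.12.

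Small tumours were compared with the same liver libraries, so the tests against liver share their controls. All 10 genes were again lower, with 31% of all genes called lower and 34.7% higher, and the median log2 fold change was -0.93 against 0.027 for all genes. Marco fell by 2.99 ± 0.45, Timd4 by 2.27 ± 0.35, Clec4f by 1.43 ± 0.27, Folr2 by 1.33 ± 0.24 and Vsig4 by 1.14 ± 0.25 on the log2 scale. The changes of Cd5l (-0.73 ± 0.21), C1qc (-0.51 ± 0.12), C1qa (-0.50 ± 0.12), C1qb (-0.47 ± 0.12) and Adgre1 (-0.44 ± 0.13) were all under 1 log2 unit.

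Between large and small tumours 6 of the 10 genes were lower in the large ones, in a comparison where 1.55% of all genes were called lower and 0.929% higher. They were the 5 uptake receptors and Cd5l. Marco differed by -1.88 ± 0.45 (log2 fold change ± SE, edgeR adjusted p 0.0157), Timd4 by -1.39 ± 0.34 (0.0190), Folr2 by -1.13 ± 0.23 (0.00553), Clec4f by -1.08 ± 0.25 (0.0123), Vsig4 by -0.996 ± 0.22 (0.0113) and Cd5l by -0.65 ± 0.19 (0.0416). Adgre1 (-0.29 ± 0.11, adjusted p 0.155) and the C1q genes (-0.081 to -0.18, adjusted p 0.337 to 0.712) did not pass. Among all 14538 genes tested, 0 had every large tumour below every small one.

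The 65 tissue libraries were sequenced in 3 runs that each hold all 3 groups. Taken alone, runs 1, 2 and 3 called 8, 10 and 9 of the 10 genes lower in large tumours than in liver (21.9%, 30.6% and 16.1% of all genes), with Marco at -5.76, -5.02 and -4.11. Small tumours against liver gave 10, 7 and 5 genes (19.9%, 25.4% and 14.5% of all genes). Large against small tumours gave 0 of the 10 genes in each single run (0%, 0.0551% and 0% of all genes). At an unadjusted edgeR p under 0.05 the counts were 4, 5 and 7. Leaving out run 1, 2 or 3 left 0, 2 and 0 genes. The shares of all genes were not taken for the unadjusted counts or those without a run, which are descriptions only. The 6 calls between tumour sizes thus need all runs together. The direction of the 6 genes was lower in large tumours in each run, for example -2.87, -1.47 and -1.68 for Marco and -0.94, -1.11 and -1.27 for Folr2.

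**Figure D2:**
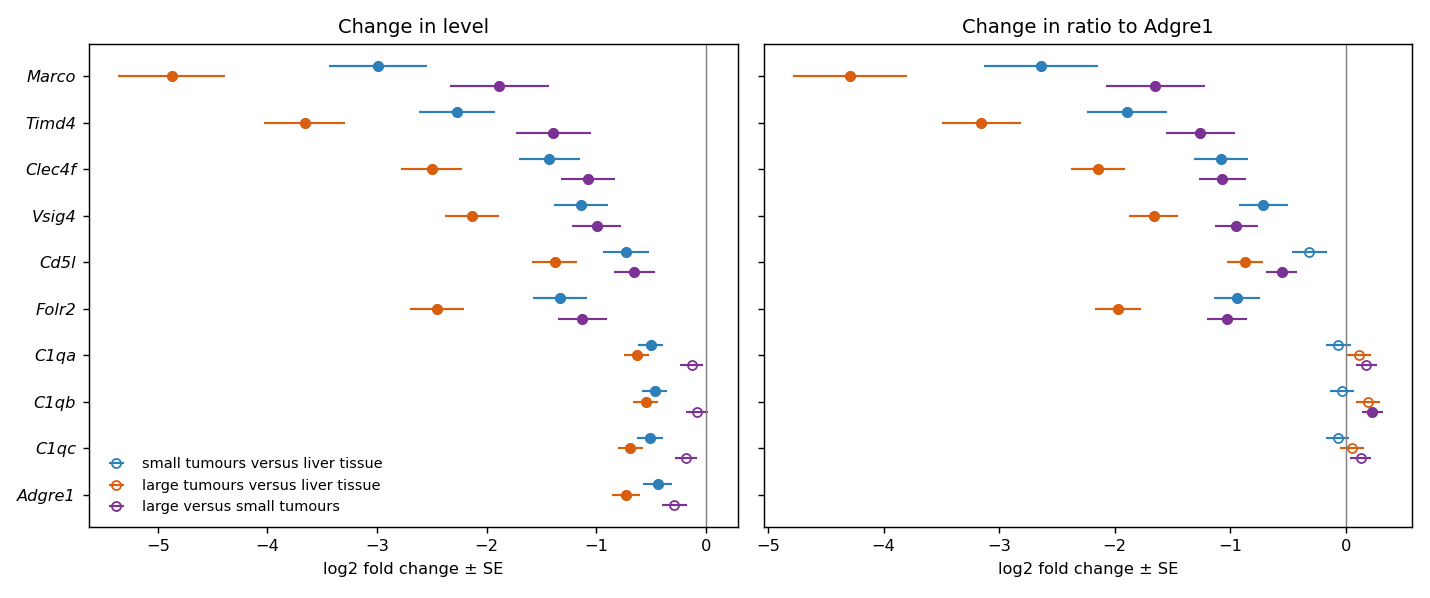
Log2 fold change of the 10 genes in the 3 tissue comparisons, with 1 SE as the bar, for the level (left, edgeR) and for the ratio to Adgre1 in the same library (right, limma); filled points passed an adjusted p of 0.05 and open points did not. The uptake receptors lie below 0 in both panels, from -4.87 for Marco in large tumours against liver, while the ratios of the C1q genes lie near 0.

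Whether the receptors fell further than macrophage RNA in general was asked by setting each gene against Adgre1 in the same library. The test was limma on the log2 ratio (CPM with a prior count of 2), across all genes. In large tumours against liver tissue 6 of the 9 other genes were lower relative to Adgre1, where 5.52% of all genes were. On this log2 ratio Marco was at -4.29 ± 0.49, Timd4 at -3.15 ± 0.34, Clec4f at -2.15 ± 0.23, Folr2 at -1.97 ± 0.20, Vsig4 at -1.66 ± 0.21 and Cd5l at -0.87 ± 0.15. C1qa (0.11 ± 0.11, adjusted p 0.318), C1qb (0.19, adjusted p 0.0806) and C1qc (0.054, adjusted p 0.616) did not pass, so no change of C1q relative to Adgre1 was detected. The ratio of a typical gene to Adgre1 was higher by 0.83, because Adgre1 itself fell.

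In small tumours against liver tissue the 5 receptors were lower relative to Adgre1 (6.87% of all genes were), from -2.64 for Marco to -0.72 for Vsig4, and Cd5l was not (-0.32, adjusted p 0.0606). Between large and small tumours 6 genes were lower relative to Adgre1 (0.887% of all genes), from -1.65 for Marco to -0.55 for Cd5l, and C1qb was higher by 0.23 (adjusted p 0.0360), as 50.9% of all genes were. With Cd68, a lysosomal protein of all macrophages, in place of Adgre1, 9 of 10 genes were lower in large tumours than in liver (10.2% of all genes), the exception being C1qb at -0.17 (adjusted p 0.0850). In small tumours against liver 5 were lower relative to Cd68 (8.54% of all genes), and between large and small tumours 6 were (0.757%). Within single runs the counts relative to Adgre1 were 6, 6 and 5 for large tumours against liver (3.77%, 5.82% and 1.98% of all genes). They were 3, 3 and 0 for small tumours against liver (2.49%, 4.66% and 1.15%), and 0, 0 and 4 for large against small (0%, 0.00689% and 0.173%). Relative to Cd68 the counts were 6, 6 and 6 for large tumours against liver (5.1%, 8.66% and 3.34% of all genes), 3, 2 and 0 for small tumours against liver (2.93%, 5.64% and 2.08%), and 0, 0 and 0 for large against small (0% in each run).

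Per length of transcript, the make-up of the 10-gene sum shifted from receptors to C1q. The shares below are of summed mean counts per kilobase of exon per 1000000 gene counts (RPKM), and compare genes with each other. In liver tissue Cd5l held 26.2% of the sum, C1qb 19.2%, C1qa 15.8%, Clec4f 14.9%, C1qc 9.24%, Vsig4 5.87%, Folr2 2.81%, Marco 2.73%, Adgre1 2.45% and Timd4 0.834%. In large tumours Clec4f held 5.96%, Vsig4 3.16%, Marco 0.226% and Timd4 0.154%, while C1qb held 28.7% and C1qa 22.4%. Small tumours lay between, with Clec4f at 9.50% and C1qb at 23.4%. Cd5l kept a similar share throughout (27.0% in small and 22.5% in large tumours).

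**Figure D3:**
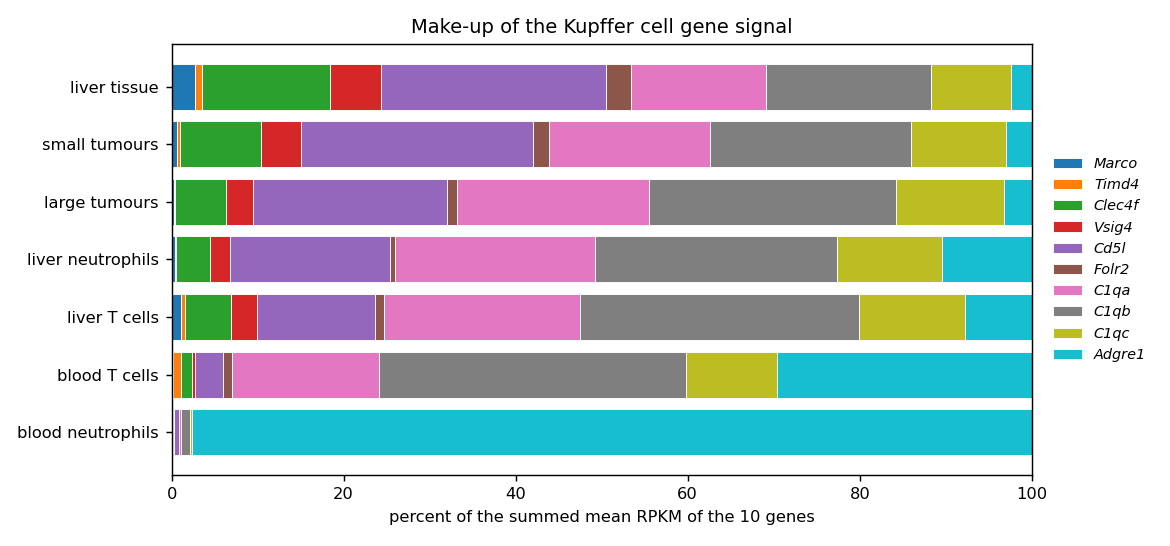
Share of each gene in the summed mean RPKM of the 10 genes (percent, stacked bars from 0 to 100) in liver tissue, both tumour sizes and the sorted cells. C1qa, C1qb and C1qc widen from liver tissue to large tumours, and Adgre1 makes up 97.6% of the sum in blood neutrophils.

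Some tumours held low levels of all 10 genes and others of few. In 16 of 25 large tumours all 10 genes were below the lowest liver library of that gene, and in 21 at least 8 were. Of the small tumours, 5 had all 10 below, 15 had at least 8, and 1 had none.

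Group and run means were removed from the log2 CPM values of the 65 tissue libraries. The C1q genes and Adgre1 were then much alike, as were Clec4f, Vsig4, Folr2 and Cd5l, and Marco with Timd4. C1qa correlated with C1qb at Pearson's r of 0.98, C1qb with C1qc at 0.98 and C1qc with Adgre1 at 0.87. Clec4f correlated with Vsig4 at 0.96, with Folr2 at 0.96 and with Cd5l at 0.92, and Marco with Timd4 at 0.87. These sets were not separate. Cd5l correlated with Adgre1 at 0.81 and with Marco at 0.49, and Marco with Clec4f at 0.63. In small tumours Cd5l was at 0.89 with C1qc and at 0.37 with Marco. The lowest pairs were Marco with C1qa and with C1qb, at 0.27. Within single groups Marco and C1qa were at 0.55 in liver tissue (n = 15), 0.30 in small tumours (n = 25) and 0.21 in large tumours (n = 25), whereas Marco and Timd4 were at 0.98, 0.88 and 0.86. These values are descriptions over libraries that share runs, depth and tissue make-up.

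**Figure D4:**
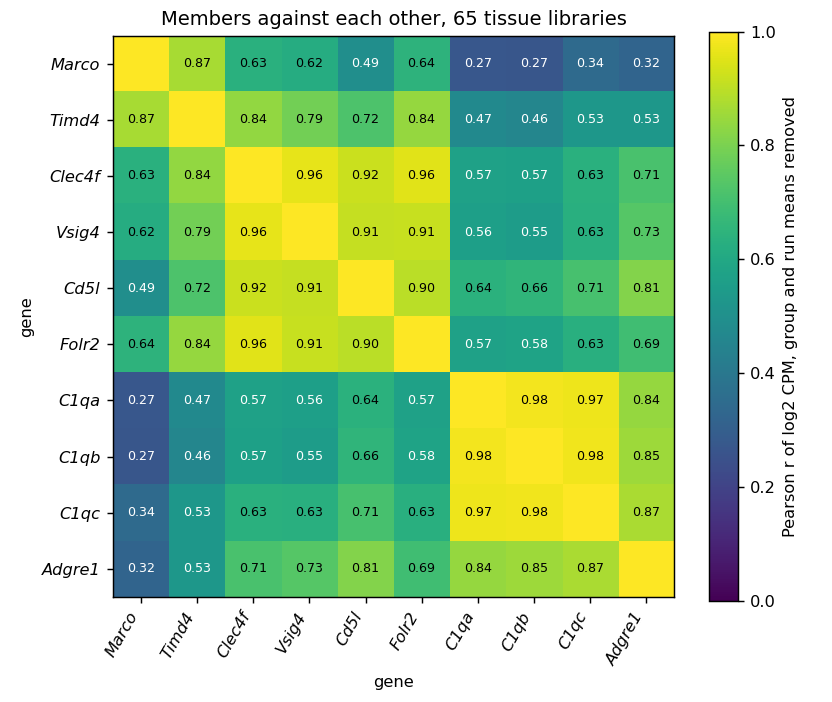
Pearson correlation between the 10 genes over 65 tissue libraries, after removal of group and run means from log2 CPM. The C1q genes form a block, as do Clec4f, Vsig4, Cd5l and Folr2, and Marco with C1qa is among the lowest pairs at 0.27.

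The genes whose residual pattern was most like the mean of the 10 were Csf1r, the receptor of the macrophage growth factor CSF-1 (r = 0.94), Siglec1, the macrophage sialoadhesin (0.92), Cfp, complement properdin (0.92), Treml4 (0.92), Clec1b (0.89), B430306N03Rik (0.89), Wfdc17 (0.88), Rims3 (0.87), Itgal (0.86) and Fabp7 (0.86). The median over all 14538 genes was -0.0196 and the 95th percentile 0.435. At the other end were Ly6c1 (-0.70), Vwa1 (-0.64), Cd34 (-0.59), Rflnb (-0.59) and Prdm15 (-0.57).

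Most other genes of Kupffer cell identity that were listed moved the same way. Of 16 such genes 14 were lower and 1 higher in large tumours than in liver tissue (32.1% and 38.5% of all genes). Their median log2 fold change was -0.73. Cd163, the haemoglobin scavenger receptor, went from a median of 21.0 CPM in liver to 0.431 CPM in large tumours (-4.32 ± 0.51), and Fcna, the lectin ficolin A, from 70.5 to 10.6 CPM (-2.54 ± 0.24). The gene that was higher, named here after its value was seen, was Id1 (2.21 ± 0.21), a target of BMP signals. In small tumours 13 were lower and 1 higher (31% and 34.7% of all genes). Between large and small tumours 5 were lower (1.55% of all genes), among them Cd163 (-1.80 ± 0.48, edgeR adjusted p 0.0313) and Fcna (-0.92 ± 0.21, adjusted p 0.0123).

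The counts of the lists that follow stand beside 38.5% of all genes higher and 32.1% lower in large tumours against liver tissue, and 34.7% and 31% in small tumours. General macrophage genes were mixed. Of 16, 9 were lower and 3 higher in large tumours, with Cd14, the LPS co-receptor, rising by 3.25 ± 0.27 on the log2 scale from 8.87 to 82.0 CPM. Genes listed for lipid-associated macrophages, which are found in fatty and injured liver, went the other way: 10 of 12 rose and 0 fell. Cd63 was up by 3.00 ± 0.16 and Spp1, which epithelial cells express too, by 2.70 ± 0.49. Which cells of the tumours held this RNA was not tested. Of 12 monocyte genes 6 rose, a share not far from that of all genes, and 1 fell. Ly6c1 rose by 3.15 ± 0.42 and Ace by 1.39 ± 0.21, and both are also expressed by endothelial cells. Of 8 dendritic cell genes 4 rose and 1 fell, with Siglech up by 1.61 ± 0.34 and Ccr7 by 0.93 ± 0.28. In small tumours the counts were 2 higher and 9 lower for general macrophage genes, 10 and 0 for lipid-associated, 5 and 1 for monocyte and 3 and 1 for dendritic cell genes. Between large and small tumours Ly6c1 rose (1.25 ± 0.31, edgeR adjusted p 0.0210), and no other gene of these 4 lists passed.

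Of 13 genes of the signals that form the Kupffer cell niche, 8 rose and 5 fell in large tumours. Cxcl12, a chemokine, fell by 1.83 ± 0.16, and Gdf2, which encodes BMP9 and is made by stellate cells, fell by 1.52 ± 0.23. Sinusoidal endothelial genes gave 3 higher and 4 lower of 12, close to the shares of all genes, with Clec4g at -1.08 ± 0.20 and Dnase1l3 at -0.79 ± 0.16. In small tumours 4 of these endothelial genes were higher and 0 lower. Between tumour sizes 3 fell (1.55% of all genes did), among them Clec4g (-0.81 ± 0.18, edgeR adjusted p 0.0123) and Dnase1l3 (-0.66 ± 0.14, adjusted p 0.00801). Of 7 tested classical complement genes outside C1q, 1 was higher and 4 lower in large tumours, with C1qbp at -0.50 and C4b at -0.46.

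Genes of other cell types moved beside these results. Of 12 hepatocyte genes 7 were higher and 4 lower in large tumours, with Cyp2e1 at -4.31 and Ass1 at -1.98. Of 10 stellate genes 4 were higher and 3 lower, with the collagens Col1a1 at 1.93 and Col3a1 at 1.58. T cell genes gave 7 of 8 higher (Cd5 1.17, Cd8a 1.11), B cell genes 5 of 6 tested lower and 1 higher (Cr2 1.02), and neutrophil genes 1 of 6 tested lower (Ngp -1.51). Their part in the fall of the Kupffer cell genes was not tested.

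In sorted cells the question is how much of this RNA appears in cells that are not Kupffer cells. Depth was 580113 to 9256224 gene counts in neutrophil libraries and 337110 to 10755816 in T cell libraries, against 12055434 to 21850190 in tissue. The sorted libraries carried their own markers, at levels that varied widely in liver neutrophils. S100a8 was at 1582 to 10588 CPM in blood neutrophils and 117 to 13005 CPM in liver neutrophils. Ly6g was at 10.7 to 165 CPM in blood neutrophils and 1.06 to 204 CPM in liver neutrophils. Cd3e was at 320 to 630 CPM in blood T cells and 116 to 835 CPM in liver T cells. Cd3e also reached 147 CPM in liver neutrophils (median 0.487 CPM), above the lowest liver T cell library. Liver libraries of both cell types also held RNA of liver cells. Alb, the albumin of hepatocytes, had a median of 72.4 CPM (18.0 to 1386) in liver neutrophils and 0.505 CPM in blood neutrophils, and 38.2 CPM (1.04 to 2042) in liver T cells. Stab2, of sinusoidal endothelium, was at 0.673 to 339 CPM in liver neutrophils.

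Blood neutrophils held Adgre1 but almost none of the other 9 genes. Adgre1 was at 53.1, 78.9 and 126 CPM there and had counts in 32 of 32 libraries, whereas each of the other 9 had a median of 0 and counts in 1 to 8 libraries. In liver neutrophils (29 libraries) C1qb was at 2.14, 52.6 and 328 CPM, C1qa at 0.855, 38.7 and 246 CPM and Cd5l at 2.68, 57.9 and 491 CPM. Clec4f was at 0, 19.4 and 76.2 CPM, with a count in 28 of 29 libraries, and Vsig4 at 0, 4.36 and 36.6 CPM. Folr2 (median 1.06 CPM), Marco (0.570 CPM) and Timd4 (0.372 CPM) were near the level of a few reads, with 3 counts worth 0.349 to 5.17 CPM in these libraries. The liver libraries varied over 2 orders of magnitude for C1q and Cd5l.

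The labels name the animal, so liver and blood neutrophils of 29 animals were compared as pairs. Of 9 genes that could be tested 8 were higher in liver, where 39.4% of all genes were called higher, and Timd4 was left out by the filter on low counts. A gene with almost no blood counts passes that filter through its liver counts, so this count has little meaning by itself. C1qa was higher by 9.95 ± 0.27 (log2 fold change ± SE), Cd5l by 9.23 ± 0.37, Clec4f by 8.92 ± 0.28, Vsig4 by 7.13 ± 0.37 and Marco by 5.03 ± 0.54; with blood at or near 0, these sizes depend on the prior count. C1qa, C1qb, C1qc and Cd5l were higher in the liver library of all 29 animals, Clec4f and Vsig4 of 28, Folr2 of 23, Marco of 19 and Timd4 of 18. Adgre1 differed by -0.17 ± 0.12 (edgeR adjusted p 0.219) and was higher in liver in 16 of 29.

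In T cells the levels were lower. In liver T cells (36 libraries) C1qb had a median of 3.08 CPM, C1qa 2.60, C1qc 2.52, Cd5l 1.75, Clec4f 0.652 and Adgre1 3.43 CPM. Marco and Timd4 had a median of 0, with counts in 16 of 36 libraries each. The highest libraries reached 73.0 CPM of C1qa, 165 CPM of Cd5l and 88.1 CPM of Clec4f. Blood T cells had medians of 1.10 CPM of Adgre1, 0.282 of C1qb and 0.124 of C1qa.

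Over 36 animals, 7 of 7 tested genes were higher in liver T cells than in blood T cells (33.3% of all genes were), with Marco, Timd4 and Folr2 left out by the filter. As in neutrophils, genes with few blood counts passed the filter through their liver counts, and the count is a description only: in blood T cells Vsig4 had counts in 1 of 37 libraries, Cd5l in 8 and Clec4f in 10. Cd5l was higher by 5.72 ± 0.48, Vsig4 by 4.75 ± 0.44, Clec4f by 4.51 ± 0.48, C1qa by 4.17 ± 0.38, C1qc by 3.91 ± 0.40, C1qb by 3.52 ± 0.43 and Adgre1 by 1.70 ± 0.36 (edgeR adjusted p 9.0e-05). C1qa was higher in the liver library of 35 of 36 animals and Clec4f of 32. In 2 animals the liver T cell library stood apart for its summed Kupffer cell genes, and without these animals 6 genes were tested and all 6 were higher, with Clec4f at 3.64 and Cd5l at 4.96.

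**Figure D5:**
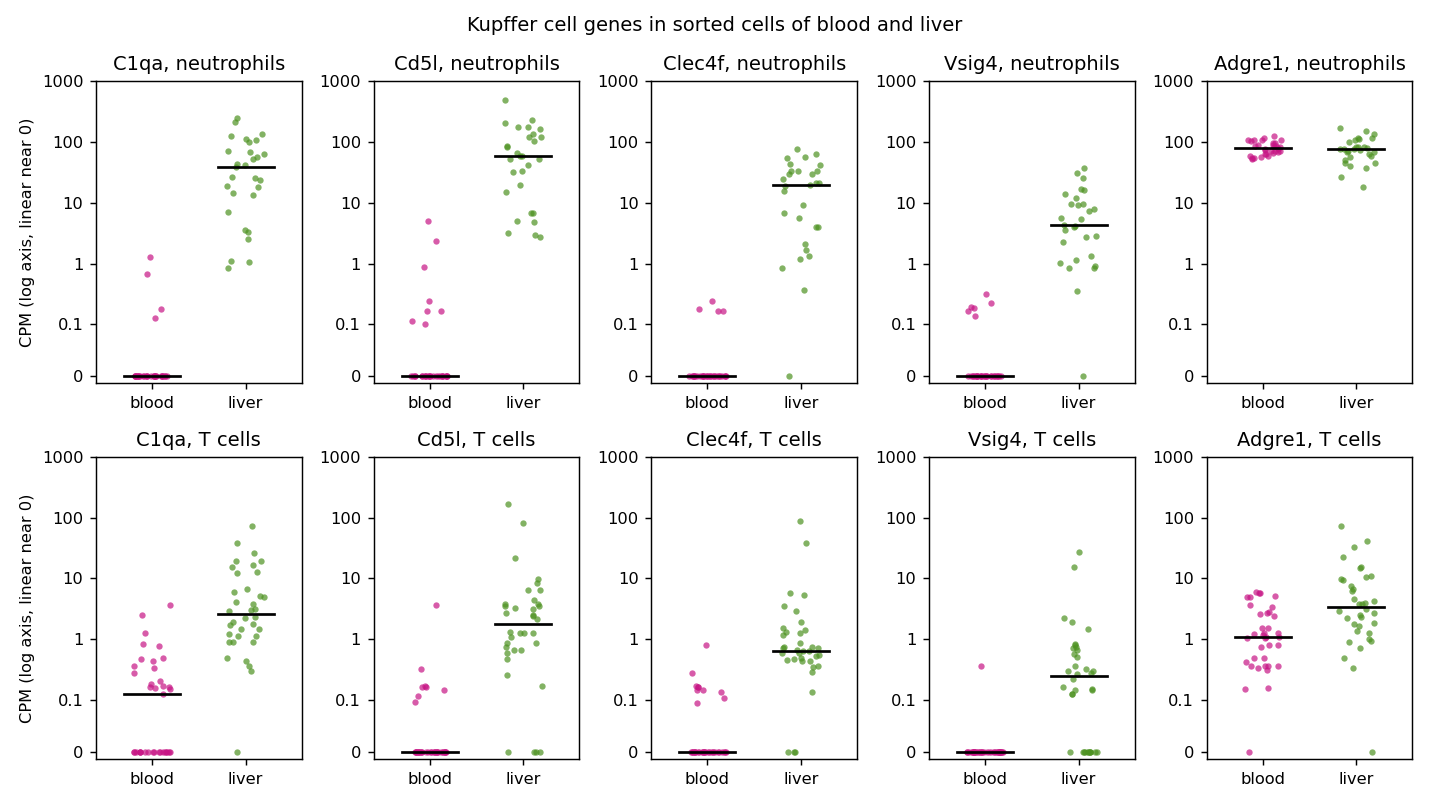
Level of C1qa, Cd5l, Clec4f, Vsig4 and Adgre1 in every blood and liver library of sorted neutrophils (top) and T cells (bottom), in CPM on a log axis that is linear near 0, with the group median as a bar. C1qa has a median of 38.7 CPM in liver neutrophils and 0 in blood neutrophils, whereas Adgre1 has like levels in both.

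The make-up in sorted liver cells was not that of liver tissue. In liver neutrophils C1qb held 28.1% of the summed RPKM, C1qa 23.3%, Cd5l 18.6% and Clec4f 3.93%, and Adgre1, which blood neutrophils also held, 10.5%. In liver T cells C1qb held 32.4%, C1qa 22.8%, Cd5l 13.8%, Adgre1 7.73% and Clec4f 5.35%. Clec4f was thus a smaller share of the sum than the 14.9% of liver tissue in both. Tissue and sorted cells differ in library kit, and the shares were not tested against each other.

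By treatment, with run sets pooled, the sum of these genes in liver neutrophils was highest at the median in aPD1 mice. The sum over the 10 genes was 82.3 to 421 CPM (median 258) in 6 untreated libraries, 488 to 1618 CPM (median 848) in 5 aPD1 libraries, 63.8 to 367 CPM (median 203) in 10 CXCR2i libraries and 39.7 to 585 CPM (median 448) in 8 combination libraries. Of the combination libraries in run set A, those at 420, 475 and 509 CPM held 1274483, 580113 and 1949024 gene counts. Those at 39.7 and 60.8 CPM held 6387051 and 5562367. The combination libraries of run set B, at 370 to 585 CPM, held 4327205 to 8603634. Every aPD1 library was above every untreated and CXCR2i library. Untreated libraries were all in run set A and aPD1 libraries all in run set B, so their difference rests on the run set estimate that the other groups provide. Within CXCR2i the median sum was 290 CPM in run set B (4 libraries). It was 76.3, 160 and 76.0 CPM in A (1), C (2) and D (3). Within the combination it was 529 CPM in run set B (3 libraries) and 420 CPM in A (5).

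No member was called in liver neutrophils of any treatment against untreated (edgeR, run set as a term, 9 genes tested). Of all genes 0.142% were called for CXCR2i, 0% for aPD1 and 10.8% for the combination. At an unadjusted p under 0.05 the member counts were 2 for CXCR2i, 0 for aPD1 and 2 for the combination, and DESeq2 called 0, 0 and 1. The gene called by DESeq2 was Vsig4, at -1.96 (adjusted p 0.0483). The shares of all genes at that unadjusted threshold or called by DESeq2 were not taken.

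After these levels were seen, aPD1 was also compared with CXCR2i and with the combination, since run set B holds all 3. In that run set C1qa was at 43.0, 135 and 246 CPM in 5 aPD1 libraries, 23.2, 26.0 and 56.5 CPM in 4 CXCR2i libraries and 51.4, 63.6 and 68.0 CPM in 3 combination libraries. Cd5l was at 134, 205 and 491 CPM, then 14.9, 45.9 and 83.8 CPM, then 105, 165 and 175 CPM. The aPD1 libraries did not overlap those of CXCR2i for Cd5l, C1qc (lowest 53.9 against highest 49.1 CPM) and Adgre1 (110 against 108 CPM). They did overlap for C1qa and the other members. The share of all genes without overlap was not taken, so the non-overlap between these 5 and 4 libraries is a description only. Over all run sets 0 of 9 genes were called against CXCR2i (0% of all genes), with 5 at an unadjusted p under 0.05, among them Cd5l at 2.38 ± 0.85 (edgeR adjusted p 0.137) and C1qa at 2.34 ± 0.97 (adjusted p 0.166). DESeq2 called 4 of them, Cd5l, C1qb, C1qc and Adgre1. The shares of all genes at an unadjusted p under 0.05 or called by DESeq2 were not taken, so these counts are descriptions only. In run set B alone 4 were called higher under aPD1, as were 4.86% of all genes: Cd5l (2.25, adjusted p 0.0294), C1qa (2.04, 0.0305), C1qb (2.04, 0.0279) and C1qc (2.08, 0.0252). Against the combination 0 were called (0.444% of all genes) and 1, Adgre1, at an unadjusted p under 0.05 (0.74, adjusted p 0.524), and DESeq2 called 0.

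The same libraries differed in other markers. In run set B the 8 neutrophil genes summed to 937, 10887 and 23744 CPM under aPD1 and to 21506, 32910 and 50565 CPM under CXCR2i. The 12 sinusoidal endothelial genes summed to 347, 489 and 2271 CPM and to 147, 387 and 785 CPM, and the 12 hepatocyte genes to 78.1, 170 and 2601 CPM and to 49.8, 69.4 and 137 CPM. The neutrophil sums were thus lower at the median under aPD1, and the endothelial and hepatocyte sums higher, with overlapping ranges. The T cell and B cell sums did not overlap. T cell genes summed to 10.9 to 714 CPM under aPD1 and to 1.18 to 7.47 CPM under CXCR2i. B cell genes summed to 30.6 to 166 CPM under aPD1 and to 3.92 to 28.3 CPM under CXCR2i. The 3 combination libraries, whose Kupffer cell genes summed to 370 to 585 CPM against 177 to 367 CPM under CXCR2i, had neutrophil sums of 37694, 46604 and 60550 CPM, endothelial sums of 243, 339 and 429 CPM and hepatocyte sums of 82.9, 151 and 551 CPM. Their T cell sums were 6.94, 9.35 and 12.6 CPM and their B cell sums 9.85, 21.8 and 22.2 CPM. At the median, their neutrophil, hepatocyte, T cell and B cell sums were above those of CXCR2i, and their endothelial sums below. The part of these markers in the differences was not tested.

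Liver T cells showed no called member under CXCR2i, aPD1 or the combination against untreated (edgeR, 7 genes tested; 0.669%, 0.00769% and 0.169% of all genes). At an unadjusted p under 0.05 the counts were 0, 0 and 0, and DESeq2 called 0 members for CXCR2i and the combination, where 1 member each had no adjusted p. For aPD1 it gave no adjusted p to any of the 7, so it could make no call there. The 10 genes summed to 12.0 to 320 CPM (median 49.1) in 6 untreated libraries and 7.73 to 125 CPM (median 56.7) in 5 aPD1 libraries. Liver T cells of PBS mice held 0 to 20.6 CPM and those of mice labelled CXCR2i alone 3.98 to 31.2 CPM, and these groups share no run set with the untreated one, so group and run set cannot be told apart there. A PBS library of 440785 gene counts had 0 counts of all 10 genes, which allows up to 6.81 CPM of each.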

How the data were processed

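The values are raw counts, deposited by the authors as a single table with a row for each of 37713 genes, of which 37607 have a symbol. The build GRCm38 and the tools HTSeq 0.11.2, HISAT2 2.1.0, Trim Galore 0.6.4 and FastQC 0.11.8 come from the submitters' processing notes. The rows of the table that name no gene held 63.2% of all entries and stayed out of library sizes and tests. Every column was matched to a sample by its label, which gives 23 groups. Tissue libraries held 12055434 to 21850190 gene counts (median 15178619), neutrophils a median of 5690277 and T cells a median of 6291781. Nothing says that tissue libraries came from separate animals, so p-values there measure the spread between these samples.

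Counts were scaled with TMM factors and tested with edgeR 4.0.16 (quasi-likelihood, robust, filterByExpr with a minimum count of 10 and a minimum total of 15). SEs were computed from the log2 fold change and its F value. Ratios to Adgre1 or Cd68 were tested with limma 3.58.1 on log2 CPM with a prior count of 2. R was 4.3.3, DESeq2 (an alternative) 1.42.0, pandas 2.3.3 and matplotlib 3.10.9. P-values were adjusted over all genes tested, and 0.05 was the threshold. Tissue fits had the sequencing run as a term, liver against blood the animal, and treatment fits the run set. In 1116 pairs of libraries no copies were found (lowest chi-square per degree of freedom 2.857).

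The 10 genes and all gene lists were chosen with earlier results of these data known. All members are named in every comparison; from each other list the 2 called genes with the largest change in large tumours against liver tissue, and for likeness the 10 highest and 5 lowest genes by correlation with the members' mean. Some of the genes this rule names are not reported here. The deviations of liver and blood libraries of 1 animal correlated at 0.083 in neutrophils (29 pairs) and 0.159 in T cells (36 pairs), against -0.0098 and -0.031 for other pairs. The animal, named in the labels, pairs them. On simulated counts with known changes, 91.8% of 2-fold and 99% of 4-fold changes were recovered for large tumours against liver tissue (14538 genes). For liver neutrophils under the combination (11945 genes) the shares were 7.22% and 56%, and for liver T cells under the combination (13005 genes) 31% and 72%, so changes of that size between treatments can be missed. Intervals and limits from counts cover counting error only.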

Additional observations from a re-analysis of the deposited data

Results flagged for a closer look

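In 20 groups of 5 to 10 sorted libraries, the sum over the 10 Kupffer cell genes was examined for a library far from the rest, and 2 were found. Chance gives about 1 in 20 groups where the sums follow a normal distribution. Whether these untransformed sums do was not tested, so the chance rate here is not known. Liver T cells under CXCR2i had replicate 3 at 637.2 CPM, with the next library at 113.7 CPM and a group median of 20.75 CPM (n = 6). In that group the 12 sinusoidal endothelial genes summed to 38.5 to 3346 CPM and the 12 hepatocyte genes to 40.5 to 1657 CPM. Liver T cells of untreated mice had replicate 2 at 320.3 CPM, with the next at 88.36 CPM and a median of 49.06 CPM (n = 6). There the endothelial genes summed to 51.0 to 381 CPM. What sets these libraries apart was not tested.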

How the results depend on the processing

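The count of 6 genes lower in large than in small tumours became 0, 2 and 0 without run 1, 2 and 3, and 0, 0 and 0 in each run alone. In small tumours against liver tissue, run 3 alone called 5 of the 10 genes. Relative to Adgre1, the runs alone called 3, 3 and 0 genes in small tumours against liver, and runs 1 and 2 called 0 and 0 in large against small. Relative to Cd68 they called 3, 2 and 0, and then 0, 0 and 0. These fits hold fewer libraries. The 10 calls of large tumours against liver tissue stayed at 10 with DESeq2, RLE factors, no filter, no run term and without the 4 tissue libraries over 10 CPM of S100a8. Cd5l in large against small tumours had an adjusted p of 0.0615 with no filter and 0.0697 without those 4 libraries. The single-run fits, the run set fits and the comparisons of aPD1 with CXCR2i and the combination were chosen after seeing the data. For aPD1 against CXCR2i in liver neutrophils the count of 0 became 4 in run set B alone, 4 with DESeq2 and 5 with no run set term, and the cause was not tested. Of all genes 4.86% were called higher in run set B alone, and the shares with DESeq2 and without the term were not taken. For the combination against untreated the count of 0 became 1 with DESeq2, where the share was not taken either. Leaving out each replicate of the groups of 5 gave 0 throughout. The title number as a block for the tissue comparisons left the counts at 10, 10 and 6; same-numbered tissue libraries correlated at -0.036 (55 pairs), so the number does not pair them. With the treatment in place of the animal block, the counts of liver against blood were 8 in neutrophils and 7 in T cells, as with it. No value called in either fit changed sign. Of 1446 member values under the alternatives 65 had the other sign, 12 in tissue and 53 in sorted cells, and 0 of these were called. Among them were C1qa (0.018) and C1qb (0.11) in large against small tumours in run 1 alone. With no run set term Vsig4 was at 0.18 for the combination against untreated, where the value with the term was -1.81. Marco in aPD1 against CXCR2i went from 0.20 to -2.26 without shallow or mixed libraries.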

Other observations

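Of the 10 genes, Adgre1 aside, almost no counts were found in blood neutrophils, but genes of the other Kupffer identity list were present there. The 16 genes of that list summed to 1074 to 1588 CPM over the 4 groups of blood neutrophils and to 349 to 1423 CPM over the 4 groups of liver neutrophils, ranges that overlap. In T cells of PBS mice the same sum was 67.0 to 92.2 CPM in blood and 74.3 to 92.6 CPM in liver, which overlap too.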
